A study of Mus musculus with 3 samples.

Results

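The 9 genes Odc1, Amd1, Srm, Sms, Sat1, Smox, Oaz1, Oaz2 and Azin1 encode the enzymes that make and break down polyamines and the proteins that control ornithine decarboxylase. They were taken by name from gene models of the mouse genome build mm9 (NCBIM37) and are 9 of the 22368 genes counted in the same way. For each gene, ChIP-seq reads were counted within 2 kb of the transcription start site (TSS) and in bins of 400 bp over the gene body and 20 kb to each side, here called its territory. The study asked where transcription factors bind DNA in maturing megakaryocytes, the bone marrow cells that release platelets. The 3 libraries came from mature megakaryocytes of wild-type CD1 mice, grown from fetal liver with thrombopoietin and collected after 5 days of culture. One library was precipitated with an antibody to FLI1, another with an antibody to RUNX1, and the input library held chromatin that was not precipitated. Sample labels give the embryos as E15, whereas the methods of the study give an earlier day. Erythroid, granulocytic and macrophage cells were depleted with antibodies, and large mature cells were enriched by sedimentation through bovine serum albumin. The study states that a small residue of granulocytes and macrophages could not be avoided. Both precipitated libraries were pools of at least 3 precipitates and there was 1 library per antibody, so there are no replicates and no test between libraries was made. Intervals below are exact 95% intervals for counting error only and do not cover variation between precipitates or cultures.

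Polyamines are small positively charged molecules that bind nucleic acids and that growing cells need for translation. Ornithine decarboxylase makes putrescine, and aminopropyl groups derived from S-adenosylmethionine then extend it to spermidine and spermine. Antizymes, whose translation rises with polyamine levels, bind ornithine decarboxylase and direct it to the proteasome. FLI1 is an ETS factor and RUNX1 a RUNT-domain factor, and megakaryocyte maturation depends on both.

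The FLI1 library held 62946422 reads outside the mitochondrial chromosome, the RUNX1 library 3973856 and the input library 21745220 at distinct positions. FLI1 was 15.8 times as deep as RUNX1, so that a stretch of 400 bp held 13.5 FLI1, 0.850 RUNX1 and 4.65 input reads at the genome-wide rate. The study's supplement lists a RUNX1 library many times larger than the RUNX1 file analysed here, so RUNX1 counts below describe this file, and a missing RUNX1 call says nothing about the full library. The cell type was checked at the starts of marker genes, where 9 of 12 megakaryocyte markers reached a FLI1 over input ratio of 1.5 or more at a median of 2.45, compared with 39.9% of protein-coding genes, 1 of 6 erythroid, 3 of 6 granulocyte and macrophage, 0 of 5 hepatocyte and 0 of 3 lymphoid markers. For RUNX1, 7 of 12 megakaryocyte (median 1.59), 3 of 6 erythroid (median 1.49), 1 of 6 granulocyte and macrophage, 1 of 5 hepatocyte and 0 of 3 lymphoid markers reached 1.5, compared with 33.6% of protein-coding genes. These markers show occupancy and not expression. They were chosen with earlier results of these data known, so they are no independent check of the cell type. In the study's methods the control chromatin was digested with micrococcal nuclease, whereas chromatin for both factors was sonicated, but the sample labels name only sonication. How the input was fragmented is thus uncertain, and ratios to input depend on it. Input reads were 34 bp long and those of both factors 50 bp, so the sequence to which reads map uniquely may differ. The part of read length in the ratios was not tested.

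FLI1 was enriched over input at the starts of most of these genes, and within 2 kb of the TSS the ratio was highest at Azin1, Sat1 and Amd1. At 6 of the 9 genes the FLI1 over input ratio, scaled to library depth, was 1.5 or more within 2 kb of the TSS, compared with 39.9% of the 21877 protein-coding genes that had an input read. The study shows Amd1 as an example locus of binding by FLI1, RUNX1 and a further transcription factor, NF-E2, and the gene list was built around it. Amd1 thus enters this count and the bin counts below by selection. The median ratio was 1.69 over the 9 genes and 1.26 over all protein-coding genes. Within 500 bp the median of the 9 genes was 3.71 and 8 reached 1.5, but the share of protein-coding genes at 1.5 or more also rose, to 54.3%. Other settings lowered the FLI1 count. It was 5 with read ends not moved (39.9% of protein-coding genes) and 5 with plus-strand reads alone (41.4%). At a ratio of 2 or more it was 4, compared with 25.2%. With every annotated start counted it was 5 at a median of 1.51, a setting without a share over all genes. For RUNX1, 5 of the 9 genes reached 1.5 within 2 kb of the TSS, compared with 33.6% of protein-coding genes. The medians were 1.98 for the 9 genes and 1.17 for all protein-coding genes. With plus-strand reads alone, 8 of the 9 genes reached 1.5 for RUNX1 and 34.9% of protein-coding genes did. Within 500 bp of the TSS, 5 of the 9 genes reached it, but the share of protein-coding genes rose to 49.2%. Only 3 of the RUNX1 ratios within 2 kb of the TSS, those of Amd1, Oaz1 and Azin1, had an interval above 1.

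**Figure D1:**
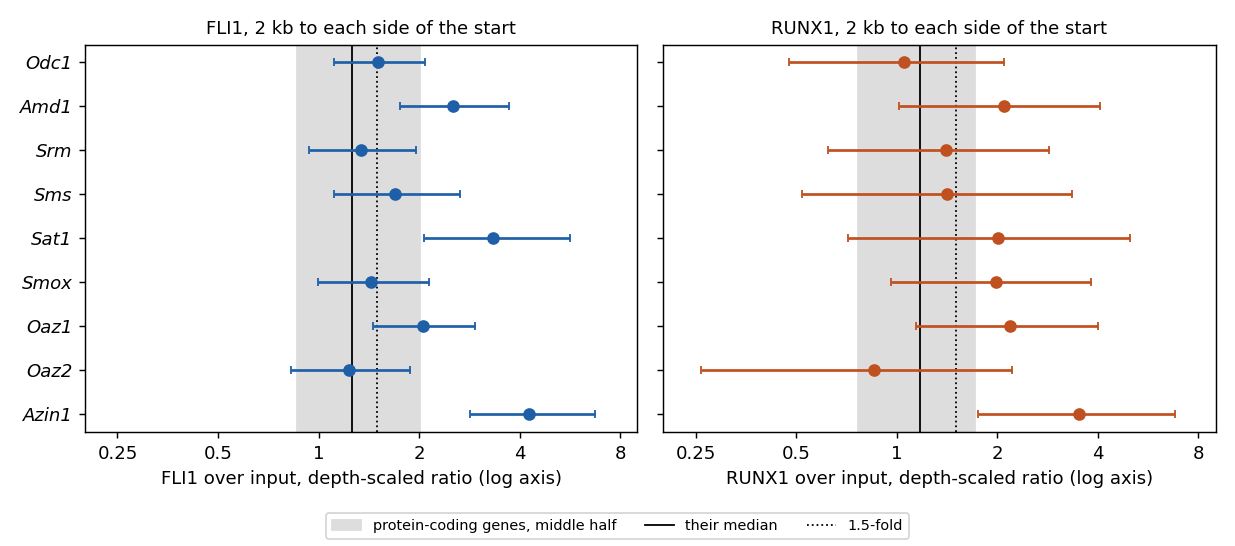
Ratio of FLI1 (left) and RUNX1 (right) to input within 2 kb of the TSS on a log axis, with 95% counting intervals, for the 9 genes. The grey band spans the quartiles of protein-coding genes (0.860 to 2.01 for FLI1 and 0.764 to 1.71 for RUNX1), the solid line their median and the dotted line a ratio of 1.5. Azin1 had the highest ratio for both factors, 4.27 for FLI1 and 3.50 for RUNX1, and the RUNX1 intervals of all genes overlap.

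Within 500 bp of the TSS, 6 of the 9 genes (Amd1, Srm, Sms, Sat1, Oaz1 and Azin1) had a bin called for FLI1, compared with 29.7% of protein-coding genes. A bin was called where FLI1 reads reached 3 times the highest of 3 expectations, which were the genome-wide rate, the input in the bin and the input over the surrounding 4 kb, so that a low input could not by itself raise a bin. Ratios given below for the 400 bp around a summit use the input of that window alone, without this floor, and the fold of the called bin is given beside them. The summits of FLI1 coverage in these 6 bins lay at a median of -69.5 bp from the TSS, where negative is upstream, and 5 of the 6 lay 1 to 150 bp upstream. Among the 6648 protein-coding genes with such a bin the median was -30 bp, and 46.6% of summits lay in the same interval. FLI1 read density over the 200 bp just upstream of the TSS averaged 5.45 times the genome-wide rate at the polyamine genes and 3.35 times at all protein-coding genes. Over the 200 bp just downstream the input averaged 0.382 of its genome-wide rate at the polyamine genes, lower than the 0.784 of all protein-coding genes. The part of this low input in the ratios was not tested.

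**Figure D2:**
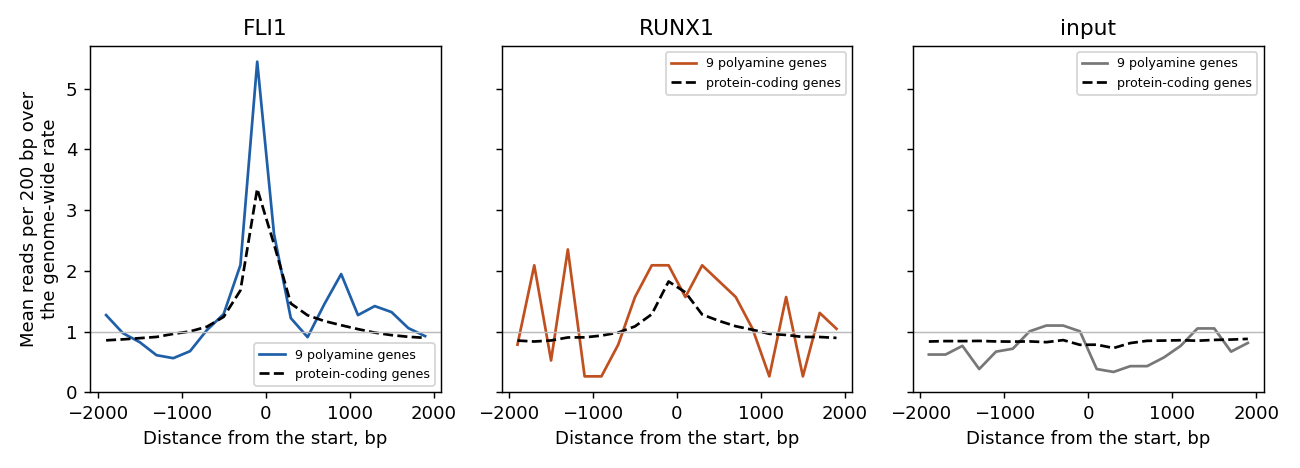
Mean reads per 200 bp over the genome-wide rate of each library against distance from the TSS in bp, for the 9 polyamine genes (coloured) and all protein-coding genes (dashed). FLI1 peaked just upstream of the start at 5.45 times the genome-wide rate, RUNX1 was uneven at its lower depth, and the input of the polyamine genes fell to 0.334 between 200 and 399 bp downstream.

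Sequences of these promoters are shown because they differ in whether these windows hold either of the 6-letter ETS sequences CCGGAA and CAGGAA, which are longer than the GGAA core that ETS factors share. Each of the first 5 is the 101 bp centred on the FLI1 summit. The last is the 120 bp upstream of the Azin1 TSS and does not reach the FLI1 summit of Azin1, which lay 33 bp downstream of the TSS. All are read 5′ to 3′ on the strand of the gene. Capitals mark a match on either strand.
Amd1, chr10:40022006-40022106, minus strand: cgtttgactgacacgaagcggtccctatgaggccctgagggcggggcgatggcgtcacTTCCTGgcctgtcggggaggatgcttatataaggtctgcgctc
Sms, chrX:153930244-153930344, minus strand: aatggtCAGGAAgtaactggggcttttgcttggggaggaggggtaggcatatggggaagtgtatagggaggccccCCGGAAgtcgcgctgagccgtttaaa
Sat1, chrX:151651003-151651103, minus strand: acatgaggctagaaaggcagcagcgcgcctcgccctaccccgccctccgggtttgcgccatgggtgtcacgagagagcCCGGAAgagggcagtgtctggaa
Srm, chr4:147965464-147965564, plus strand: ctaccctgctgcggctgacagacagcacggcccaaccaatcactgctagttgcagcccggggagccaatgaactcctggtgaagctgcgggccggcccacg
Oaz1, chr10:80289213-80289313, plus strand: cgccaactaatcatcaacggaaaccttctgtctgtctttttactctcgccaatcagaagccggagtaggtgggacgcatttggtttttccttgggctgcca
Azin1, chr15:38449022-38449141, minus strand: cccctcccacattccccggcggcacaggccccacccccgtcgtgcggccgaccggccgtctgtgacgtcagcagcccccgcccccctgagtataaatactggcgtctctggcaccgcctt

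Amd1, Sms and Sat1 held the ETS letters and Sms held them at 2 positions, whereas the windows of Srm and Oaz1 and the upstream stretch of Azin1 had no match. These letters occurred in 11.0% of 178197 windows of 101 bp spread over the territories of protein-coding genes and in 20.8% of stretches of 120 bp upstream of protein-coding starts. The result depends on the window and letters chosen, since Srm held 1 match in a stretch of 300 bp that spans its TSS and lies mostly upstream. Odc1 and an internal TSS of Oaz2 also held 1 match in such a stretch. The letters occurred in 41.4% of these stretches at protein-coding genes. A match describes the letters only, and no match says nothing about the factor.

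The genes of synthesis come first. Odc1 encodes ornithine decarboxylase, which makes putrescine and limits the rate of the pathway, and lies on chr12:17551679-17558308 on the plus strand. Within 2 kb of its TSS there were 227 FLI1, 10 RUNX1 and 52 input reads, the highest input of the 9 genes at 1.12 times the genome-wide rate. FLI1 over input was 1.51 (95% interval 1.11 to 2.08) and RUNX1 over input 1.05 (0.477 to 2.09). FLI1 was thus only slightly enriched over this window and RUNX1 was not distinguishable from input. Within 500 bp of the TSS the FLI1 ratio was 2.42 (1.35 to 4.71), from 91 FLI1, 3 RUNX1 and 13 input reads. The bin at the start, with 41 FLI1 reads, 1 RUNX1 read and 0 input reads, was 2.78-fold and fell just short of the threshold. The called bin of its territory lay upstream of the gene, with a summit 13867 bp from the TSS and 42 FLI1, 0 RUNX1 and 2 input reads in 400 bp. This bin was 3.12-fold, just past the threshold. The 101 bp around its summit open with a CA repeat, and the part of the repeat in the call was not tested.

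Amd1 encodes S-adenosylmethionine decarboxylase, which provides the aminopropyl donor, and lies on chr10:40007265-40021992 on the minus strand. Its TSS window of 2 kb to each side held 248 FLI1, 13 RUNX1 and 34 input reads. FLI1 over input was 2.52 (1.76 to 3.72), at percentile 85.0 of protein-coding genes, and RUNX1 over input was 2.09 (1.01 to 4.07). Much of the FLI1 signal sat at a single summit 64 bp upstream of the TSS, in the promoter sequence printed above, where 400 bp held 125 FLI1, 2 RUNX1 and 7 input reads. The FLI1 ratio there was 6.17 (2.91 to 15.7), and the bin was 4.34-fold.

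The territory of Amd1 held 4 bins called for FLI1, which formed 3 regions. Beyond the 3′ end of the gene, 25880 bp downstream of the TSS, a region with about as many FLI1 reads as the promoter held 141 FLI1, 5 RUNX1 and 12 input reads, with a FLI1 ratio of 4.06 (2.25 to 8.04) and a highest bin of 4.41-fold. This region was intergenic. The nearest protein-coding TSS, 18641 bp away, was that of Gtf3c6, which encodes a subunit of RNA polymerase III factor TFIIIC. A region with fewer reads, 15246 bp downstream of the TSS, held 47 FLI1, 3 RUNX1 and 2 input reads, with a FLI1 ratio of 8.12 (2.13 to 69.0) and a bin of 3.34-fold. Both held the ETS letters, on opposite strands, and are shown for comparison with the promoter, to which no link was tested:
Amd1 +25880 bp, chr10:39996062-39996162, minus strand: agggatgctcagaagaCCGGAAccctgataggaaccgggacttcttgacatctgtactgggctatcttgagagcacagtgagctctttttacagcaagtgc
Amd1 +15246 bp, chr10:40006696-40006796, minus strand: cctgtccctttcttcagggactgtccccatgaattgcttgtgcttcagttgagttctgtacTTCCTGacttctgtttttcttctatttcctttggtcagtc
The only RUNX1 call at Amd1 was an intronic bin centred 9392 bp downstream of the TSS, with 5 RUNX1, 27 FLI1 and 3 input reads.

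Srm encodes spermidine synthase and lies on chr4:147965612-147969102 on the plus strand. Around its TSS, within 2 kb, there were 151 FLI1, 10 RUNX1 and 39 input reads, and both ratios, 1.34 (0.935 to 1.95) for FLI1 and 1.40 (0.625 to 2.86) for RUNX1, had intervals that included 1. Close to the TSS, within 500 bp, 59 FLI1, 6 RUNX1 and 4 input reads gave ratios of 5.10 (1.89 to 19.3) and 8.21 (1.95 to 39.5). Within 1 kb the ratios were 1.69 and 1.82, so both rose as the window narrowed, and the narrowest rests on 4 input reads. The promoter region held 34 FLI1, 3 RUNX1 and 2 input reads in 400 bp around its summit. Its called bin, with 42 FLI1 reads, was 3.12-fold. The bin with the most FLI1 reads of this territory, 84, lay 8212 bp upstream of the TSS and was not called, since it also held 11 input reads and its fold was 2.64.

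Sms encodes spermine synthase and lies on the X chromosome at chrX:153881787-153930219 on the minus strand. The 2 kb to each side of its TSS held 132 FLI1, 7 RUNX1 and 27 input reads, with ratios of 1.69 (1.11 to 2.66) for FLI1 and 1.42 (0.522 to 3.34) for RUNX1. FLI1 reads were 0.980 and input reads 0.580 of their genome-wide rates. The summit was 75 bp upstream of the TSS, where 400 bp held 47 FLI1, 0 RUNX1 and 2 input reads, and no other bin of its 222 was called for either factor. At Sms the promoter was thus the only place called for FLI1 at this threshold. On the X chromosome the median bin of 10 kb held 0.544 of the autosomal input, 0.632 of the autosomal FLI1 reads and 0.688 of the autosomal RUNX1 reads, so that ratios to input at Sms and Sat1 start from a higher base. Bin calls started from the genome-wide rate of 13.5 FLI1 reads, whereas the median bin held 8 at Sms and 7 at Sat1. A bin there had to rise further above its surroundings to be called than at the other genes. The part of either in the ratios and calls of Sms and Sat1 was not tested.

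Breakdown is carried out by another pair. Sat1 encodes spermidine/spermine acetyltransferase, which acetylates polyamines for export or oxidation, and lies on chrX:151647675-151650992 on the minus strand. Within 2 kb of its TSS there were 183 FLI1, 7 RUNX1 and 19 input reads. FLI1 over input was 3.33 (2.07 to 5.65), at percentile 93.4 of protein-coding genes, with the lowest input of the 9 genes at 0.408 of the genome-wide rate. FLI1 reads themselves were 1.36 times the genome-wide rate. RUNX1 over input was 2.02 (0.716 to 5.01) from those 7 reads, and within 500 bp a single RUNX1 read gave 0.684 (0.0154 to 5.10), so that the direction for RUNX1 turned with the window. The called bin held the summit 61 bp upstream of the TSS, with 68 FLI1 reads, 1 RUNX1 read and 1 input read in 400 bp and a FLI1 ratio of 23.5 (4.08 to 941), while the bin was 4.83-fold. In 18 of the 108 bins of this territory no library had a read.

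Smox encodes spermine oxidase, which turns spermine back into spermidine and releases hydrogen peroxide, and lies on chr2:131317232-131351658 on the plus strand. Within 2 kb of its TSS there were 150 FLI1, 13 RUNX1 and 36 input reads, with ratios of 1.44 (0.995 to 2.13) for FLI1 and 1.98 (0.962 to 3.82) for RUNX1. Of its 18 transcripts, 8 begin 447 bp downstream of the start of the gene record, and within 500 bp of that TSS 50 FLI1, 6 RUNX1 and 4 input reads gave ratios of 4.32 (1.59 to 16.5) and 8.21 (1.95 to 39.5). No bin at the promoter was called, and the strongest FLI1 occupancy of all 9 genes lay inside the gene instead. In an intron 5090 bp downstream of the TSS, 400 bp held 186 FLI1 reads, 1 RUNX1 read and 2 input reads, with a FLI1 ratio of 32.1 (8.77 to 267), while the called bin, with 178 FLI1 and 6 input reads, was 9.61-fold. In an intron 18476 bp downstream, 142 FLI1 reads, 1 RUNX1 read and 9 input reads gave 5.45 (2.79 to 12.2), with a bin of 5.35-fold. Both sequences held the ETS letters:
Smox +5090 bp, chr2:131322272-131322372, plus strand: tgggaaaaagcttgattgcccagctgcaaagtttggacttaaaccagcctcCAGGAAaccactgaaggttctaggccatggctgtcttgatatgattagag
Smox +18476 bp, chr2:131335658-131335758, plus strand: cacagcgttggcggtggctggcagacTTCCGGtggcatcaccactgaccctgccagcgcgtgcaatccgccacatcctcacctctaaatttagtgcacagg
The third called region lay beyond the gene, 39307 bp downstream of the TSS, and held 54 FLI1, 0 RUNX1 and 2 input reads.

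**Figure D3:**
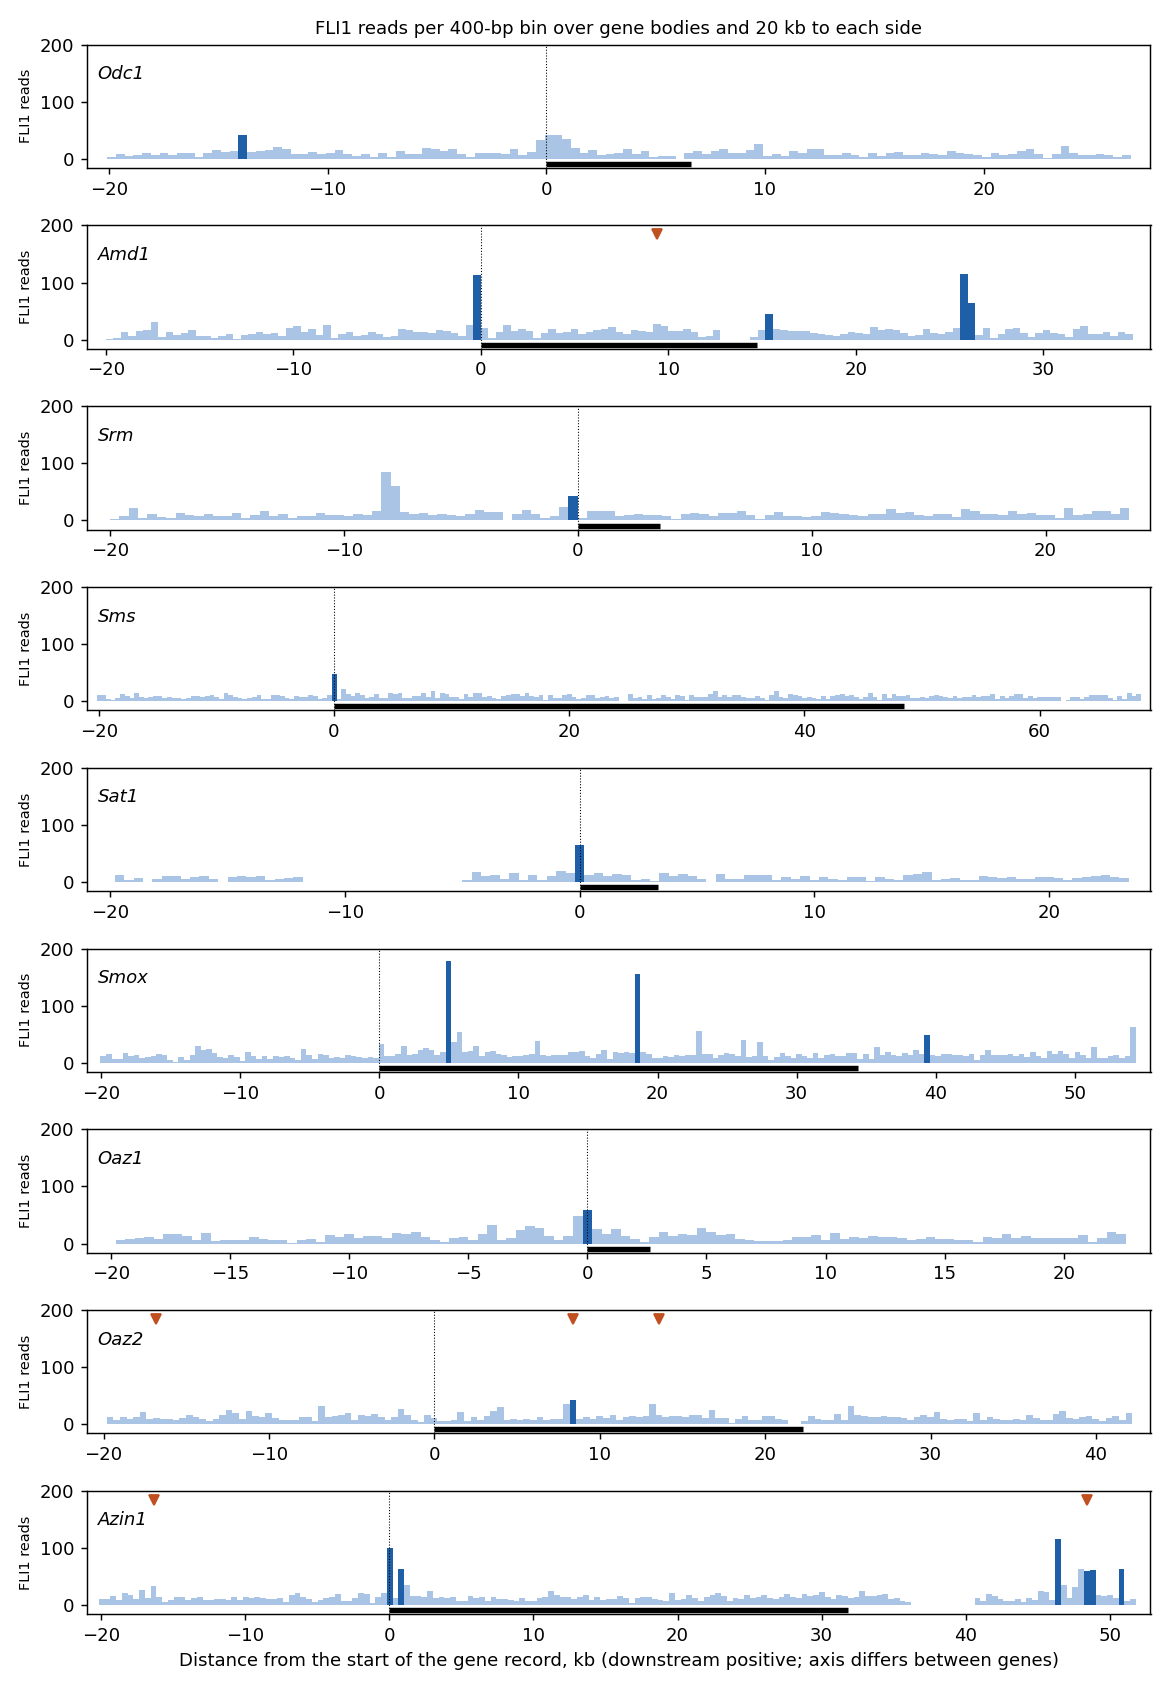
FLI1 reads per 400-bp bin against distance from the TSS in kb over the 9 territories. Dark bars are bins called for FLI1, triangles bins called for RUNX1, and the black bar the gene body. The intronic bin of Smox holds 178 reads, the highest of all, and the calls of Amd1 and Azin1 fall both at the promoter and beyond the 3′ end of the gene.

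The remaining genes control ornithine decarboxylase. Oaz1 encodes antizyme 1, the main antizyme, and lies on chr10:80289401-80292035 on the plus strand. The window of 2 kb around its TSS held 237 FLI1, 16 RUNX1 and 40 input reads, with ratios of 2.05 (1.46 to 2.94) for FLI1 and 2.19 (1.14 to 4.00) for RUNX1. Both intervals lay above 1. The called region, 138 bp upstream of the TSS, held 79 FLI1, 4 RUNX1 and 8 input reads, with a FLI1 ratio of 3.41 (1.65 to 8.18) and a bin of 4.31-fold.

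Oaz2 encodes antizyme 2 and lies on chr9:65515808-65538107 on the plus strand. Its gene record carried no protein-coding transcript in this annotation and begins at an upstream TSS, where 2 kb to each side held 114 FLI1, 5 RUNX1 and 32 input reads and neither ratio, 1.23 (0.825 to 1.88) for FLI1 and 0.855 (0.260 to 2.21) for RUNX1, differed from 1 beyond counting error. Of its 8 transcripts, 5 begin instead 8547 to 8590 bp downstream, and within 500 bp of the TSS 8547 bp downstream there were 65 FLI1, 7 RUNX1 and 8 input reads. The ratios at this internal TSS were 2.81 (1.34 to 6.77) for FLI1 and 4.79 (1.48 to 15.1) for RUNX1, compared with 0.785 (0.373 to 1.77) and 0.995 (0.107 to 4.56) at the start of the record. The bin there was called for both factors, with 42 FLI1, 5 RUNX1 and 3 input reads, the lowest RUNX1 count that could be called. In the 400 bp around the FLI1 summit there were 44 FLI1, 2 RUNX1 and 3 input reads, and the RUNX1 ratio was 3.65 (0.305 to 31.8), while the bin was 3.12-fold for FLI1 and 5.88-fold for RUNX1. Its upstream sequence had no ETS or RUNX letters (TGTGGT or TGCGGT) and is shown because both factors were called there:
Oaz2 internal start, chr9:65524235-65524354, plus strand: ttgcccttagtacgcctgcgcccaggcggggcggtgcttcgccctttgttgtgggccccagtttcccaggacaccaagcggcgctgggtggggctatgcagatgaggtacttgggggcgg
Both other RUNX1 calls at Oaz2 had little FLI1. The called bin centred 16808 bp upstream of the TSS held 11 FLI1, 6 RUNX1 and 5 input reads. That centred 13592 bp downstream held 16 FLI1, 8 RUNX1 and 8 input reads.

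Azin1 encodes antizyme inhibitor 1, which resembles ornithine decarboxylase, binds antizyme and so frees the enzyme. It lies on chr15:38417185-38449021 on the minus strand. Within 2 kb of its TSS there were 309 FLI1, 16 RUNX1 and 25 input reads, with input at 0.537 of its genome-wide rate. FLI1 over input was 4.27 (2.84 to 6.70), at percentile 97.4 of protein-coding genes, and RUNX1 over input was 3.50 (1.75 to 6.82), at percentile 97.9. FLI1 was 2.29 and RUNX1 1.88 times its own genome-wide rate in this window, so that both were raised without reference to input. Within 500 bp of the TSS, 129 FLI1, 6 RUNX1 and 4 input reads gave ratios of 11.1 (4.25 to 41.5) and 8.21 (1.95 to 39.5).

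Azin1 had the most called FLI1 bins, 6 of 180. A region 33 bp downstream of the TSS held 100 FLI1, 4 RUNX1 and 2 input reads in 400 bp, and another 853 bp downstream, beside an internal TSS, held 68 FLI1 reads, 2 RUNX1 reads and 1 input read. The remaining calls lay together 46451 to 50814 bp downstream of the TSS, beyond the 3′ end of the gene. At 46451 bp there were 123 FLI1, 2 RUNX1 and 14 input reads, at 48848 bp 57 FLI1, 0 RUNX1 and 3 input reads, and at 50814 bp 61 FLI1, 2 RUNX1 and 4 input reads. The region at 48848 bp spanned 2 bins, both called for FLI1, of which 1 was also called for RUNX1 with 6 RUNX1 reads beside the FLI1 summit, and it held the ETS letters at that summit. The letters of a RUNX site occurred in the windows at 46451 bp downstream and 16340 bp upstream. The second window lay in a bin called for RUNX1 alone, with 5 RUNX1, 34 FLI1 and 4 input reads. Over all 21 regions called for either factor, 2 windows (9.52%) held the RUNX letters, near the 8.16% of windows over the territories of protein-coding genes. Of these regions, 17 were called for FLI1 and only 4 for RUNX1 alone. Every window was centred on the FLI1 summit, also at RUNX1 calls, so this share does not describe RUNX1 sites.

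Ordered by the FLI1 ratio within 2 kb of the TSS, the genes ran from Azin1 and Sat1 through Amd1, Oaz1, Sms, Odc1, Smox and Srm to Oaz2, and the intervals of every pair of neighbours in this order overlap. The interval of Azin1 lay above those of Sms, Odc1, Smox, Srm and Oaz2. The 4 genes of synthesis had a median FLI1 ratio of 1.60, the 2 of breakdown 2.38 and the 3 of control 2.05, and each class held a gene under 1.5, so the classes overlap.

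Over all 1320 bins of the 9 territories, 19 (1.44%) were called for FLI1, compared with 0.645% of bins in the territories of protein-coding genes. At 5-fold 3 FLI1 bins (0.227%) passed, compared with 0.273%, so the higher share held at 3-fold and not at 5-fold. With FLI1 thinned to the depth of RUNX1 there were 49 (3.71%), compared with 2.91%. For RUNX1, 6 bins (0.455%) were called at 5-fold with at least 5 reads, compared with 0.276%. With the bin grid moved by 200 bp the RUNX1 count was 3 (0.228%), below the 0.271% of all territories, so the higher share turned with the grid. It was 1 (0.0758%) with plus-strand reads alone, compared with 0.0202%, 11 (0.833%) without input, compared with 0.434%, and 0 at 10-fold, compared with 0.00556%. All 9 genes had a called FLI1 bin in the territory, as did 60.3% of protein-coding genes, and 3 of 9 (Amd1, Oaz2 and Azin1) had a called RUNX1 bin, as did 40.5%. The single called FLI1 bins of Odc1, Srm and Oaz2 each held 42 FLI1 reads at 3.12-fold, just past the threshold. At 5-fold only Smox and Azin1 kept a FLI1 call, and no share of genes was computed for that threshold. Territories were of like size, with a median of 54.7 kb for the polyamine genes and 55.4 kb for all genes. The 19 FLI1 bins joined into 17 regions. Of these, 8 lay within 2 kb of a protein-coding TSS or a TSS of Oaz2, 2 in introns and 7 between genes. The ETS letters occurred in 8 of the 17 windows of 101 bp (47.1%), 3 of them at the promoters printed above, compared with 11.0% of windows over the territories of protein-coding genes. These background windows were not matched for base composition or for FLI1 reads.

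RUNX1 reads were also raised where FLI1 was called, a measure that the FLI1 call did not use. The 19 bins held 38 RUNX1 reads, where the genome-wide rate gives 16.2, a ratio of 2.35 (1.67 to 3.23), while their input was 0.928 of its genome-wide rate. Over the 22626 FLI1 bins of all protein-coding territories the RUNX1 ratio was 2.59 (2.56 to 2.61), so the polyamine genes did not differ from other genes beyond counting error. In the 6 bins called for RUNX1, FLI1 reads were 2.35 (2.03 to 2.71) times the genome-wide rate, and in all 9700 such bins 2.67 (2.66 to 2.68). Of the 6, the 2 bins also called for FLI1 held 60 and 42 FLI1 reads, whereas the others held 11 to 34. The 400 bp around each FLI1 summit held 0 to 5 RUNX1 reads with a median of 2, and 4 of the 17 held none, at which count the interval reaches 3.69 reads. FLI1 and RUNX1 were not compared with each other at these regions, which were chosen for their FLI1 reads.

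**Figure D4:**
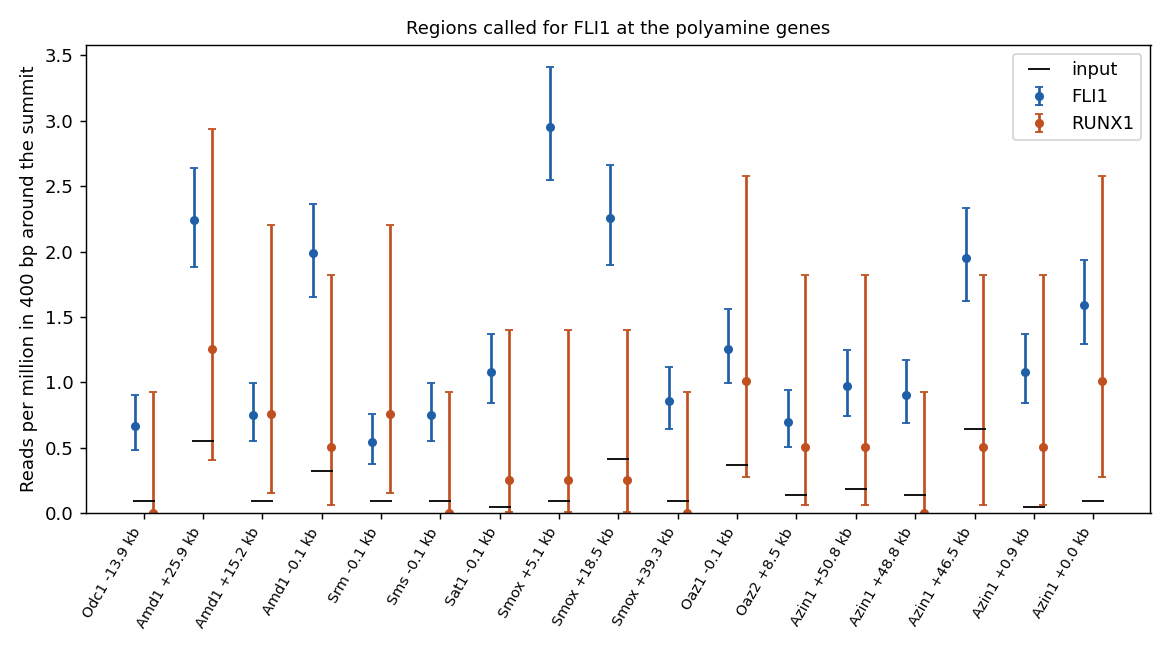
Depth-scaled reads (RPM) in 400 bp around the summit of the 17 regions called for FLI1, for FLI1 and RUNX1 with exact 95% Poisson intervals, with the input as a black dash. Labels give the gene and the distance from its TSS in kb. FLI1 is highest in the intron of Smox, 186 reads, and RUNX1 intervals are wide because none of these windows holds more than 5 RUNX1 reads.

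Of 21 further genes of polyamine metabolism, transport and use, 10 had a FLI1 ratio of 1.5 or more within 2 kb of the TSS, with a median of 1.35, near the 39.9% of protein-coding genes, and 12 had a RUNX1 ratio of 1.5 or more, with a median of 1.55, compared with 33.6%. The highest FLI1 ratios were those of Mat2b, Eif5a and Dohh. Mat2b encodes the regulatory subunit of the methionine adenosyltransferase that makes S-adenosylmethionine, and 244 FLI1, 13 RUNX1 and 19 input reads gave 4.44 (2.78 to 7.50). Eif5a, the translation factor that carries hypusine made from spermidine, had a ratio of 3.08 (2.26 to 4.29) with 45 input reads. Dohh, the hydroxylase that completes hypusine, had a ratio of 2.96 (2.21 to 4.06) with 50. The lowest were Sat2 at 0.755 (0.559 to 1.03) with 65 input reads, Agmat, the agmatinase gene, at 0.719 (0.480 to 1.09) with 37, and Amd2, an S-adenosylmethionine decarboxylase copy, at 0.622 (0.350 to 1.13) with 20, each with an interval that included 1. Whether unique mapping removed reads from Amd1 or Amd2 was not tested.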

How the data were processed

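Mature megakaryocytes were profiled by ChIP-seq for FLI1 and for RUNX1, beside an input library. Reads were aligned to mm9 by the authors with Bowtie and deposited as read positions with a strand, not as a normalized signal. Both ChIP files held each position and strand once. MACS 1.4 and SICER 1.1, named in the submitters' processing notes, were not used here. Of the input reads, 3.24% repeated a position and were counted once. Reads were moved 75 bp downstream, mitochondrial reads were left out, and libraries were scaled by total reads. Of every 5000th FLI1 read, 96.3% matched the reference with at most 2 mismatches.

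Gene models were GENCODE M1, with the TSS at the 5′ end of the gene record. Counts have exact Poisson and ratios exact conditional binomial 95% intervals (Python 3.11.15, scipy 1.17.1). Bin calling was tested on simulated data. The 9 genes, the related list and the markers were chosen with earlier results of these data known. All 9 genes are named, as are the 3 related genes with the highest and the 3 with the lowest FLI1 ratio and the nearest gene of a strong bin. The related list was found in full, with Azin2 as Adc and Slc18b1 as 1110021L09Rik. For 490 genes no input read was found and no ratio was made. Alternatives concerned scaling, fragment shift, repeated positions, start sites, window, threshold, depth, strand, bin grid and local input.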

Additional observations from a re-analysis of the deposited data

How the results depend on the processing

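No paired analysis was possible because each antibody has 1 library and no replicate could be left out. Ratios of single genes were recomputed under 9 alternatives for FLI1 and 8 for RUNX1. Of these 153 values, 14 left the interval reported, not counting RUNX1 at Sat1, and 10 crossed a ratio of 1 (2 for FLI1, both at Oaz2, and 8 for RUNX1). RUNX1 over input at Sat1, above 1.5 as reported, reversed to 0.912 within 1 kb and to 0.684 within 500 bp of the TSS. With 500 bp to each side the median FLI1 ratio of the 9 genes rose to 3.71, and the share of protein-coding genes at 1.5 or more rose to 54.3%. The 19 FLI1 bins became 3 at 5-fold and 49 when FLI1 reads were thinned to RUNX1 depth, at which 3 reads can reach 3-fold. The 6 RUNX1 bins became 0 at 10-fold, 1 with plus-strand reads, 3 with the bin grid moved by 200 bp and 11 without input. Their share was below that of all territories with the moved grid (0.228% against 0.271%) and above it without input (0.833% against 0.434%). At 10-fold only 0.00556% of bins in all territories were called, too few for 0 of 1320 bins to show a direction. Plus-strand reads were still held to at least 5 reads per bin, and the share of all territories fell from 0.276% to 0.0202%. The share of the 9 genes there (0.0758%) rests on 1 bin. The cause of the change with the grid was not tested. With plus-strand reads the genes at a RUNX1 ratio of 1.5 or more became 8. A fragment read at both ends counts as 2 reads, so intervals may be too narrow.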
